A study of Mus musculus with 6 samples.

Results

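The amino acid and neurotransmitter transporter genes were taken as every gene on the array whose single symbol begins with Slc1a, Slc6a, Slc7a or Slc38a and a number. The rule named 55 of 19938 genes, with 7 in family Slc1, 21 in Slc6, 16 in Slc7 and 11 in Slc38. Of these, 53 are transporter genes, and the other 2, Slc6a19os and Slc7a6os, are genes on the strand opposite a transporter and carry its name only. Slc38a1 and Slc38a9 had 2 measured rows each, and the row with the highest mean was used.

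All 6 cultures were mouse cells of strain 129, each measured on 1 array. Epiblast stem cells (EpiSCs, 1 array), the pluripotent cells of the early embryo kept in culture, were grown in serum replacement with FGF2. Neural rosettes (1 array) were sampled at day 5, after Noggin, Dorsomorphin and SB431542, which block BMP and activin signals, with retinoic acid and SHH. Oligodendrocyte progenitor cells (OPCs, 2 arrays) were expanded in FGF2, PDGF-AA and SHH, and oligodendrocytes (2 arrays) were made from them with thyroid hormone after FGF2 and PDGF-AA were withdrawn. Both of these cell types were sampled at passage 3 (replicate 1) and passage 11 (replicate 2), so their replicates also differ in passage. The labels name no separate cultures beyond the passage, so the tests weigh differences against the spread of these arrays alone, and that spread may be technical.

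The 4 families move amino acids and transmitters across the cell membrane. Slc1 proteins drive glutamate or neutral amino acids inward with the sodium gradient. Slc6 proteins take up GABA, glycine, taurine, creatine, monoamines and some neutral amino acids with sodium and often chloride. Slc7 proteins carry cationic amino acids, or, as light chains bound to the heavy chains Slc3a1 or Slc3a2, exchange neutral, cationic or acidic amino acids, and Slc38 proteins carry glutamine and other small neutral amino acids. In brain, glia take up glutamate and GABA from the extracellular space, and glutamine released by glia feeds transmitter synthesis in neurons.

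Values are log2 expression values, so a difference of 1 is a 2-fold difference, and levels are compared here only within a gene, because probes differ in brightness. The array medians over genes lay between 8.98 and 9.04, and the median over all genes and arrays was 9.00. No detection call was used, so a value under that median may be background. The marker lists followed the labels in part. All 7 OPC markers rose from rosette to OPCs, all 7 measured oligodendrocyte markers rose from OPCs to oligodendrocytes, and each of the 5 epiblast markers stood 4-fold or more lower in the rosette array than in the EpiSC array. From OPCs to oligodendrocytes, 0 of the 7 OPC markers were called lower at adjusted p under 0.05 (limma). Their mean log2 value at passages 3 and 11 was 12.16 and 12.31 in OPCs and 11.94 and 12.06 in oligodendrocytes. Of 6 neuroepithelium markers, 4 were lower and 2 higher in OPCs than in the rosette, and 2 of the lower ones were called. In these bulk samples, fewer cells of a type and less RNA per cell cannot be told apart. Markers of microglia were under 9.00 in every array for 8 of 10 genes, and those of endothelium for 5 of 6.

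The promoters of 5 members are shown first. Slc1a1, Slc6a11 and Slc7a14 had a difference that passed the tests below, while Slc1a4 and Slc7a11 had passage differences that did not pass. The promoters come from RefSeq on mouse build GRCm38.p6, which held 40 of the 55 members. Each runs from 250 bases before the annotated start to 10 bases after the start, on the gene's own strand. The first pair belongs to glutamate transporter Slc1a1 (chr19:28834885-28835144, plus strand) and GABA transporter Slc6a11 (chr6:114130991-114131250, plus strand), with GGGCGG, the core of the GC box, in capitals on either strand.

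Slc1a1: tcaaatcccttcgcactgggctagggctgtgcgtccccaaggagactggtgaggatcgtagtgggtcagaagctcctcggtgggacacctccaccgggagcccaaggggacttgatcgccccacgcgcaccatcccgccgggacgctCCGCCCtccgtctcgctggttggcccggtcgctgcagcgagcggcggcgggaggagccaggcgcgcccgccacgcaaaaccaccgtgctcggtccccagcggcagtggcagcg
Slc6a11: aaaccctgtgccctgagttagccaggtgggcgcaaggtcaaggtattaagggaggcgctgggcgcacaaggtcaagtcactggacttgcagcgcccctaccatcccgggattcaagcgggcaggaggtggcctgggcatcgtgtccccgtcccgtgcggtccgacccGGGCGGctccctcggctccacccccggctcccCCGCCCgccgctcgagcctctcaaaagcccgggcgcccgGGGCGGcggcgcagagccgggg

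GGGCGG, searched on both strands, was present in 30 of the 60 windows of the matched genes (50%) and in 35.7% of all 32851 promoter windows of 300 bases. Slc1a1 had 1 match and Slc6a11 had 3 in the printed stretch. Of the 260 bases shown, 70.4% were G or C in Slc1a1 and 71.5% in Slc6a11. Over windows of 300 bases the median was 52.7% for all windows and 56.5% for member windows.

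The third is that of Slc7a14 (chr3:31310310-31310569, minus strand), whose level differed at both steps from rosette to oligodendrocyte, with CACGTG, the E-box bound by MYC and USF factors, in capitals.

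Slc7a14: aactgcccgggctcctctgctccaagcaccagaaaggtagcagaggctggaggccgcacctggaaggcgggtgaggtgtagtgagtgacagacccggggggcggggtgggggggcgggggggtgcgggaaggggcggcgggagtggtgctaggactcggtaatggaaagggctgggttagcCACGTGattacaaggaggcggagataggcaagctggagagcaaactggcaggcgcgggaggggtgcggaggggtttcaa

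CACGTG lay in 7 of the 60 member windows (11.7%) and in 7.15% of all windows, and in Slc7a14 it began 69 bases before the start. The last pair is Slc1a4 (chr11:20332704-20332963, minus strand) and Slc7a11 (chr3:50443604-50443863, minus strand), which were lower at passage 11 in both cell types. Capitals mark TGATGNAA on either strand, the core of the element that ATF4 binds in genes of the amino acid response.

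Slc1a4: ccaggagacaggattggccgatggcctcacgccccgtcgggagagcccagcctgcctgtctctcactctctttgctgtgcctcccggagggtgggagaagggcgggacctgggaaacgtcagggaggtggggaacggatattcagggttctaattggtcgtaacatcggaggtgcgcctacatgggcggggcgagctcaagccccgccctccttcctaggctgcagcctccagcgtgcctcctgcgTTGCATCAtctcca
Slc7a11: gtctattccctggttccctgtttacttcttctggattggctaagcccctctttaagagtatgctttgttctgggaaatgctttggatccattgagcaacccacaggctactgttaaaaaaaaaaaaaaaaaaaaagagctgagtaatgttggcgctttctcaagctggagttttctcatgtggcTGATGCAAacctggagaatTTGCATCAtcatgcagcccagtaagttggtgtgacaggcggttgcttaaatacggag

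TGATGNAA was present in 5 of the 60 member windows (8.33%), which belong to Slc1a4, Slc6a21, Slc7a7 and Slc7a11, and in 3.97% of all windows. Windows of the same gene can overlap, and the same match in Slc7a7 was counted in 2 of the 5. Slc7a1 and Slc6a9, also lower at passage 11 in both cell types, had windows without a match. Slc1a4 had 1 match on the minus strand, 4 bases before the start, and Slc7a11 had 2, on the plus strand 66 bases and on the minus strand 47 bases before it. In Slc7a11 the second overlaps a match to ATGCAAAT, the octamer. A match describes these letters and is not evidence of binding.

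Of the 53 transporter genes, 23 were under 9.00 in every array, which is 43.4% of them against 40.4% of all genes. With Slc6a19os these were 24 members, lying between 5.32 and 8.98, and their range over the 6 arrays ran from 0.17 to 0.84 on the log2 scale. They included all but 1 of the monoamine transporters, the GABA transporters Slc6a12 and Slc6a13, the neuronal and retinal glutamate transporters Slc1a6 and Slc1a7, and the light chains Slc7a8, Slc7a9 and Slc7a10. The other 30 transporter genes exceeded 9.00 in at least 1 array. The range over the 6 arrays reached 2-fold in 22 of 55 members, against 28.5% of all genes, and 4-fold in 10, against 7.92%.

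**Figure D1:**
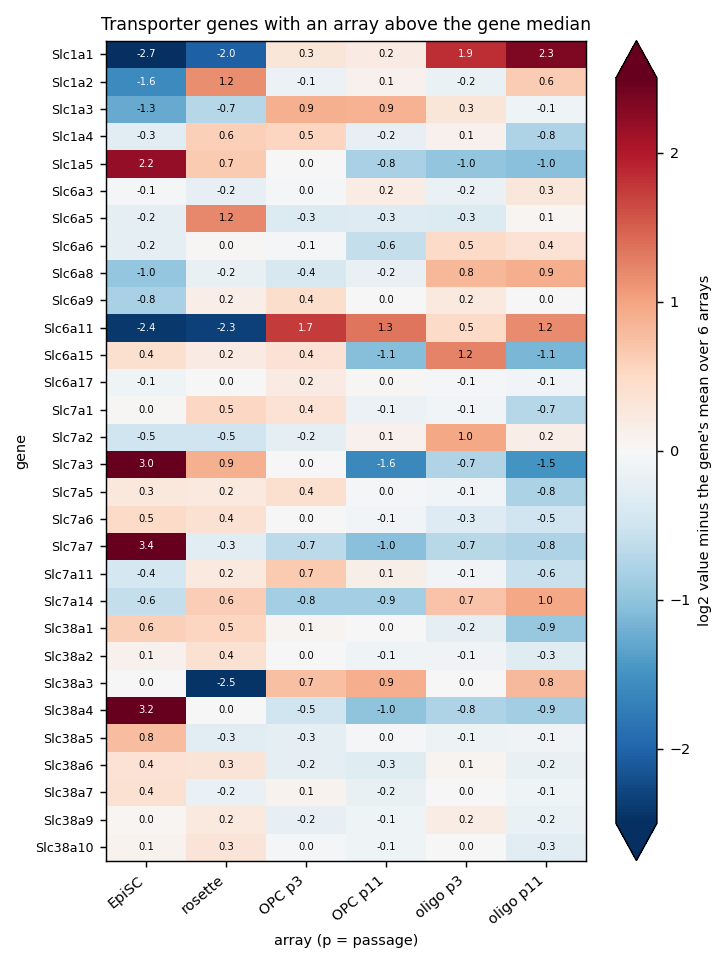
Log2 value of each of the 30 transporter genes that exceeded 9.00 in at least 1 array, minus the gene's own mean over the 6 arrays (colour and printed value); columns are arrays, p is passage and oligo is oligodendrocyte. Slc7a7 and Slc38a4 stand high in the EpiSC array, Slc6a11 in OPC and oligodendrocyte arrays, and Slc1a1 in oligodendrocyte arrays.

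The comparison of OPCs with the rosette asks which transporter genes differ between progenitors and the neural cells they came from. Slc6a11, Slc38a3, Slc1a1 and Slc1a3, carriers of GABA, glutamine and glutamate, rose by 3.03- to 14.7-fold, while Slc6a5 and Slc7a14 fell by 1.54 and 1.47 on the log2 scale. The tests used limma with Benjamini-Hochberg adjustment over 19938 genes at adjusted p under 0.05. They called 6 of 55 members against 3.13% of all genes, with 4 higher (background 1.26%) and 2 lower (background 1.87%). The median difference over the members was 0.00, against 0.02 over all genes. Without OPC replicate 1 the counts were 2 higher and 0 lower (all genes 1.04%), without OPC replicate 2 they were 1 and 0 (all genes 0.782%), and with either oligodendrocyte array left out they were 4 and 8 (all genes 14.5%). The rosette had 1 array, so its spread was assumed to be that of the OPC and oligodendrocyte pairs.

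The comparison of oligodendrocytes with OPCs asks what changed when growth factors were replaced by thyroid hormone. Slc1a1 and Slc7a14 rose, by 3.58- and 3.22-fold. The same test called 2 of 55 members higher (background 0.396%) and 0 lower (background 0.0502%), and 89 genes in all (0.446%). Among members, 7 had an unadjusted p under 0.05, against 12.3% of all genes. With passage as a replicate block the 2 became 1. Without OPC replicate 1 and without OPC replicate 2, 0 members passed (all genes 0.01% and 0.0201%). Without oligodendrocyte replicate 1 the count was 4 higher and 6 lower (all genes 14.6%), and without oligodendrocyte replicate 2 it was 7 and 2 (all genes 6.85%). Both oligodendrocyte arrays lay above both OPC arrays for 10 members (19% of all genes), and below them for 9 (21.1% of all genes).

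**Figure D2:**
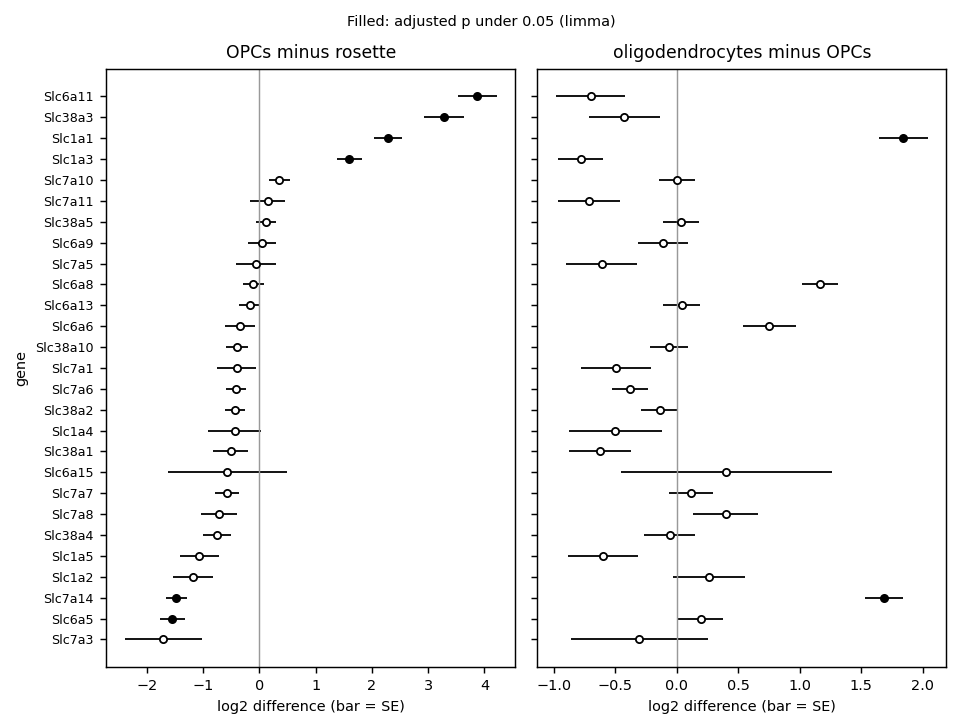
Log2 difference of 27 named members between OPCs (2 arrays) and the rosette (1 array) on the left, and between oligodendrocytes (2 arrays) and OPCs on the right, with the standard error from limma; filled points have an adjusted p under 0.05. Slc6a11, at 3.87, has the largest difference on the left, and Slc1a1, at 1.84, and Slc7a14, at 1.69, stand to the right of the others on the right.

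Among the glutamate transporters, Slc1a1 (Entrez 20510), also known as EAAC1 or EAAT3, carries glutamate and cysteine into neurons and other cells. Its log2 value was 8.01 in the EpiSC array, 8.63 in the rosette, 10.96 and 10.86 in OPCs at passages 3 and 11, and 12.51 and 12.99 in oligodendrocytes. The levels were ordered along the lineage, and no array of a later cell type overlapped an earlier one. The difference of OPCs from rosette was 2.28 (SE 0.25, adjusted p = 0.0159, limma), a 4.87-fold rise. That of oligodendrocytes from OPCs was 1.84 (SE 0.20, adjusted p = 0.0441, limma), and it was 1.55 at passage 3 and 2.13 at passage 11. The second call was lost with passage as a replicate block (adjusted p = 0.0569, limma), and both calls were lost when either OPC array was left out: the limma adjusted p was 0.0583 without replicate 1 and 0.0606 without replicate 2 for OPCs against rosette, and 0.199 and 0.258 for oligodendrocytes against OPCs.

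Slc1a3 (Entrez 20512), the glial glutamate transporter GLAST, had log2 values of 10.76 in the EpiSC array, 11.31 in the rosette, 12.92 and 12.90 in OPCs, and 12.33 and 11.92 in oligodendrocytes. Both OPC arrays stood above all others. OPCs exceeded the rosette by 1.60 (SE 0.22, adjusted p = 0.0314, limma). This call was lost without OPC replicate 1 (adjusted p = 0.119, limma) and without OPC replicate 2 (adjusted p = 0.139). Oligodendrocytes were 0.78 under OPCs, a difference that did not pass (log2 difference -0.78, adjusted p = 0.199, limma).

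Slc1a2 (Entrez 20511), the glutamate transporter GLT-1 that is most abundant in astrocytes, was 8.17 in the EpiSC array and 10.93 in the rosette, a 6.78-fold difference with 1 array each. It was 9.62 and 9.87 in OPCs and 9.61 and 10.41 in oligodendrocytes, where the arrays overlapped. The rosette array was the highest of the 6, but OPCs against rosette did not pass (difference -1.18, SE 0.36, adjusted p = 0.195, limma). Thus the 3 glutamate transporters above 9.00 each had their highest array in a different cell type.

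Markers of other cells moved beside these genes. All 10 astrocyte markers were higher in OPCs than in the rosette, and 4 of these differences were called (Aldoc, Slc4a4, Acsbg1 and Mlc1). The log2 of the summed level of the 10 was 12.13 in the rosette, 14.85 and 14.39 in OPCs, and 14.52 and 14.79 in oligodendrocytes. Aldh1l1 was 7.95 in the rosette, 11.25 and 8.65 in OPCs, and 10.71 and 9.36 in oligodendrocytes. Gfap, Aqp4, S100b, Gjb2 and Gjb6 were under 9.00 in both OPC arrays, while in oligodendrocytes at passage 3 Gfap was 10.50, Aqp4 9.89 and S100b 10.25. Their part in the results on Slc1a3, Slc6a11 and Slc38a3 was not tested.

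**Figure D3:**
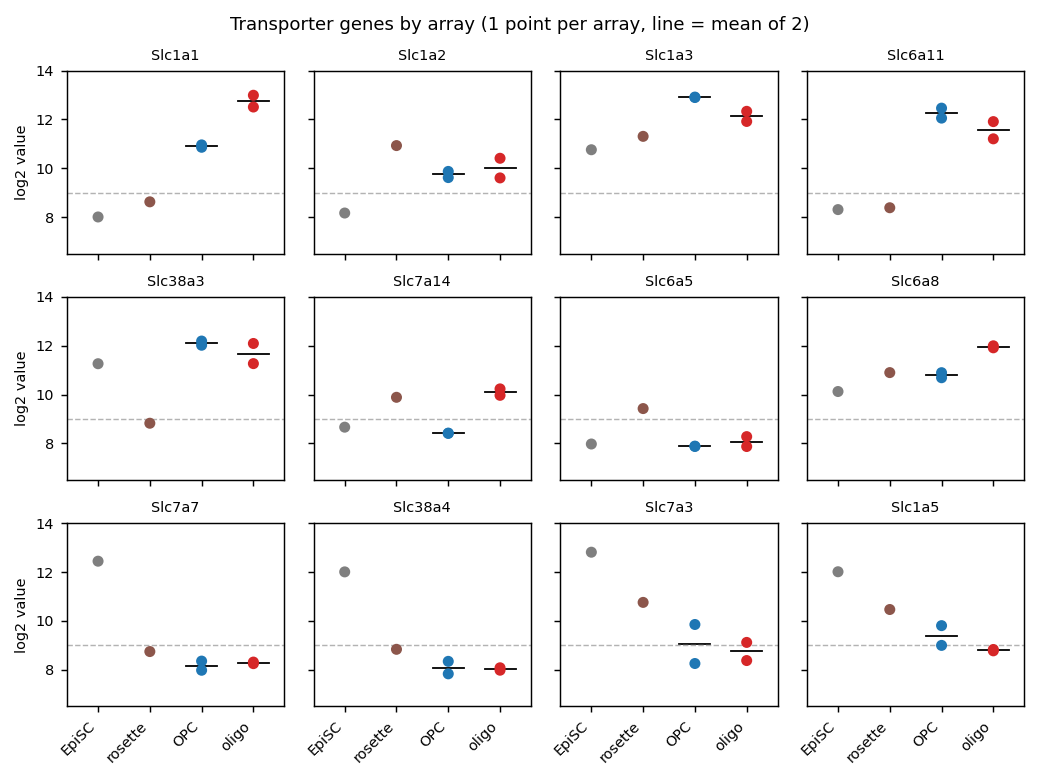
Log2 value (vertical axis) of 12 transporter genes in the EpiSC, rosette, OPC and oligodendrocyte arrays, 1 point per array, with a line at the mean of 2 arrays and a dashed line at the gene median of 9.00. Slc1a1 climbs from 8.01 to 12.99, Slc6a11 separates both later cell types from the first pair, and Slc7a7 and Slc38a4 are high in the EpiSC array alone.

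Of the GABA, taurine and creatine carriers, Slc6a11 (Entrez 243616), the GABA transporter GAT-3 that astrocytes are known to carry, was 8.31 in the EpiSC array, 8.39 in the rosette, 12.46 and 12.06 in OPCs, and 11.21 and 11.91 in oligodendrocytes. The 4 arrays of the oligodendrocyte lineage did not overlap the first 2. OPCs exceeded the rosette by 3.87 (SE 0.35, adjusted p = 0.00975, limma), or 14.7-fold, and the call held without OPC replicate 1 (difference 3.67, adjusted p = 0.0258) and without OPC replicate 2 (difference 4.08, adjusted p = 0.0235). Oligodendrocytes against OPCs did not pass (difference -0.70, SE 0.28, adjusted p = 0.414, limma).

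Slc6a8 (Entrez 102857) takes up creatine, which many cells use as an energy store, and its log2 values were 10.13, 10.90, 10.69 and 10.90 in the EpiSC, rosette and both OPC arrays, and 11.92 and 11.999 in oligodendrocytes. Both oligodendrocyte arrays stood above the other 4. The difference from OPCs was 1.16 (SE 0.15), just outside the limit (adjusted p = 0.0696, limma), and it passed after centring each array on its median (adjusted p = 0.0465). Over all alternatives its limma adjusted p ranged from 0.000782 to 0.426. Slc6a6, which takes up taurine, was 11.51 and 10.96 in OPCs and 12.04 and 11.93 in oligodendrocytes (difference 0.75, SE 0.22, adjusted p = 0.27, limma).

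For glycine, Slc6a5 (Entrez 104245), the transporter GlyT2 of glycinergic neurons, was 7.98 in the EpiSC array, 9.43 in the rosette, 7.88 and 7.89 in OPCs, and 7.87 and 8.28 in oligodendrocytes. The rosette array was alone above 9.00. OPCs fell by 1.54 on the log2 scale from the rosette (SE 0.22, adjusted p = 0.0332, limma), a call lost without OPC replicate 1 (adjusted p = 0.13) and replicate 2 (adjusted p = 0.148). Slc6a9, the transporter GlyT1 that glia are known to carry, was 10.74 in the EpiSC array, 11.72 in the rosette, 11.99 and 11.56 in OPCs, and 11.79 and 11.54 in oligodendrocytes. Its level in the last 5 arrays overlapped between cell types. The 3 monoamine transporters, Slc6a2, Slc6a3 and Slc6a4, did not exceed 9.13 in any array.

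The rosette was also the highest array for 10 of 11 measured neuron markers; the exception was Map2, highest in OPCs. The rosette exceeded the EpiSC array by 2-fold or more in 10 of the 11. From rosette to OPCs 10 of the 11 were lower and 1 higher, and 5 of the lower ones were called. The log2 of their summed level was 15.88 in the rosette, 14.13 and 14.03 in OPCs, and 14.53 and 13.99 in oligodendrocytes. From OPCs to oligodendrocytes 3 of the 11 were higher and 8 lower, and 0 of these differences passed. Their part in the results on Slc6a5 and Slc7a14 was not tested.

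In family Slc7, Slc7a14 (Entrez 241919), a relative of the cationic amino acid transporters, had log2 values of 8.67 in the EpiSC array, 9.89 in the rosette, 8.42 and 8.41 in OPCs, and 9.97 and 10.23 in oligodendrocytes. The rosette and both oligodendrocyte arrays stood above 9.00, with both OPC arrays below. OPCs fell by 1.47 from the rosette (SE 0.19, adjusted p = 0.0244, limma) and oligodendrocytes rose by 1.69 from OPCs (SE 0.16, adjusted p = 0.0407, limma). Without OPC replicate 1 these adjusted p-values were 0.115 and 0.193, and without replicate 2 they were 0.141 and 0.227. After quantile normalization again they were 0.0704 and 0.0806.

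The rosette and EpiSC arrays, at 1 array each, were compared by size alone. The comparison describes the step from pluripotent to neural cells. A 4-fold difference was passed by 1 member upward, Slc1a2 (background 1.75%), and by 4 downward, Slc7a7, Slc38a4, Slc38a3 and Slc7a3 (background 0.797%), while 2.54% of all genes passed in either direction. At 2-fold it was 3 upward and 6 downward, against 10.6% of all genes. The 55 members had a median difference of -0.10, and all genes one of -0.07.

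Slc7a7 (Entrez 20540), the light chain y+LAT1 that exchanges cationic for neutral amino acids, was 12.45 in the EpiSC array and 8.74 in the rosette, 13.0-fold apart, and did not exceed 8.35 in any OPC or oligodendrocyte array. Slc7a3 (Entrez 11989), a carrier of arginine and lysine, was 12.81 in the EpiSC array, 10.76 in the rosette, 9.85 and 8.26 in OPCs, and 9.12 and 8.38 in oligodendrocytes. Both were highest in the EpiSC array. OPCs and oligodendrocytes overlapped in Slc7a3, and the rosette exceeded each of their arrays, but OPCs against rosette did not pass (difference -1.70, adjusted p = 0.331, limma).

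Slc1a5, the exchanger ASCT2 that carries glutamine, was likewise highest in EpiSCs, at 12.01, against 10.47 in the rosette, 9.81 and 9.00 in OPCs, and 8.83 and 8.77 in oligodendrocytes. No array overlapped between successive cell types. Neither OPCs against rosette (difference -1.07, adjusted p = 0.227) nor oligodendrocytes against OPCs (difference -0.60, adjusted p = 0.5) passed with limma. Slc7a5, the light chain LAT1 for large neutral amino acids, lay between 11.77 and 12.95 in all 6 arrays, and its relative Slc7a6 between 11.21 and 12.18.

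In family Slc38, Slc38a3 (Entrez 76257), the glutamine carrier SNAT3 known from astrocytes and liver, was 11.27 in the EpiSC array, 8.83 in the rosette, 12.02 and 12.19 in OPCs, and 11.27 and 12.09 in oligodendrocytes. The rosette array was alone below 9.00. OPCs exceeded it by 3.28 (SE 0.36, adjusted p = 0.0159, limma), or 9.71-fold. Without OPC replicate 1 the difference kept its call (adjusted p = 0.0382, limma), and without replicate 2 it missed the threshold (adjusted p = 0.0514).

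Slc38a4 (Entrez 69354), a carrier of neutral and cationic amino acids, was 12.01 in the EpiSC array and 8.84 in the rosette, 9.01-fold apart. It lay between 7.83 and 8.34 in OPCs and oligodendrocytes. The system A carriers Slc38a1 and Slc38a2, which load neutral amino acids with sodium, differed less. Slc38a2 lay between 12.68 and 13.36, and Slc38a1 ran from 12.45 in the EpiSC array to 10.92 in oligodendrocytes at passage 11. The second row of Slc38a1 was also lowest in the oligodendrocyte arrays, at 8.45 in each. Unlike the row used, it was highest in OPCs at passage 11, at 9.67, against 9.50 in the EpiSC array. Slc38a5, Slc38a7, Slc38a9 and Slc38a10 had no called difference.

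The partners of these transporters were taken from lists of vesicular transporters, enzymes, sodium pump subunits and heavy chains. Of 7 vesicular transmitter transporters, which load transmitters into synaptic vesicles, 3 were called lower in OPCs than in the rosette and 0 higher. By sign alone, 6 were lower and 1 was higher. Slc18a2, the monoamine carrier, was 8.14 in the EpiSC array, 11.26 in the rosette, and 7.75 to 7.91 in OPCs and oligodendrocytes (OPCs minus rosette -3.44, adjusted p = 0.00583, limma). Slc17a6, for glutamate, fell by 2.49 on the log2 scale, and Slc18a3, for acetylcholine, fell by 2.21. All 3 had the rosette as their highest array, as did 10 of the 11 neuron markers, whose part was not tested.

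Of 17 enzymes of glutamate, GABA, glycine, creatine and taurine metabolism, 1 was called higher and 1 lower in OPCs than in the rosette. By sign alone, 10 were higher and 7 lower. Gatm, which makes the creatine precursor guanidinoacetate, was 9.31 in the rosette and 12.66 and 12.74 in OPCs (difference 3.39, adjusted p = 0.0159, limma). Gad2, which makes GABA, was 9.40 in the rosette and 7.67 and 7.66 in OPCs (difference -1.74, adjusted p = 0.0133). Abat, which degrades GABA, was 11.06 and 11.28 in OPCs and 12.10 and 12.54 in oligodendrocytes, a difference of 1.15 that did not pass (adjusted p = 0.126, limma). Glul, which makes glutamine from glutamate, was 12.17 in the rosette, 12.93 and 12.85 in OPCs, and 12.93 and 13.16 in oligodendrocytes (OPCs minus rosette 0.73, adjusted p = 0.138).

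Of 3 measured sodium pump subunits, which keep the sodium gradient that drives most of these carriers, Atp1b2 rose from 8.79 in the rosette to 11.30 and 11.56 in OPCs (difference 2.64, adjusted p = 0.00811, limma). None of the 10 heavy chains and other amino acid transporters passed in either comparison by limma, and 1 had an unadjusted p under 0.05 for oligodendrocytes against OPCs and 0 for OPCs against rosette. Slc3a2, the heavy chain of Slc7a5, Slc7a6, Slc7a7 and Slc7a11, lay between 12.86 and 13.57 in all arrays. Among 12 amino acid response genes, 1 was called lower in OPCs than in the rosette, Atf3 (difference -1.01, adjusted p = 0.0453, limma), and 0 were called higher. By sign alone, 11 of the 12 were lower and 1 was higher.

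**Figure D4:**
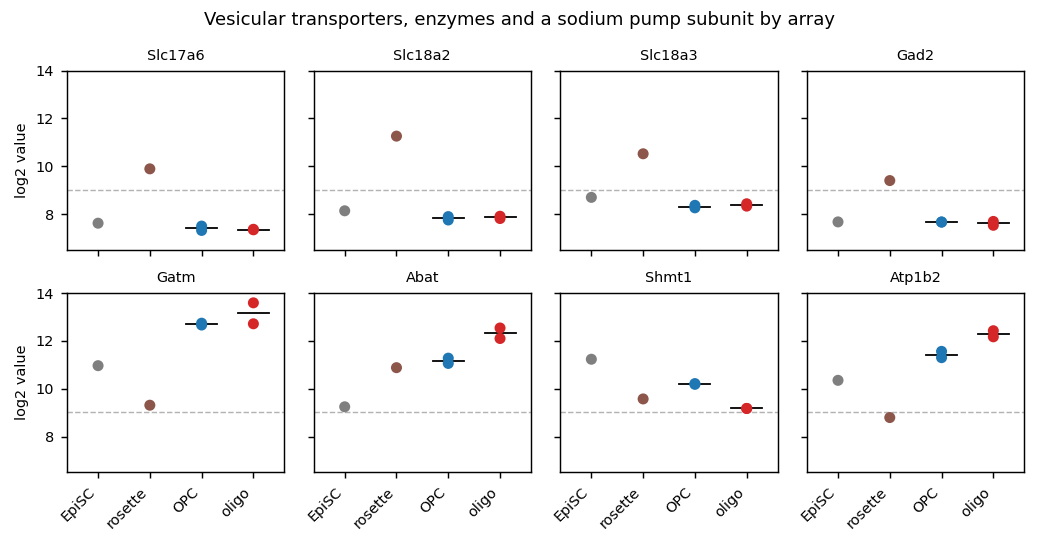
Log2 value of 3 vesicular transporters, 4 enzymes and 1 sodium pump subunit in each array, 1 point per array, with a line at the mean of 2 arrays and a dashed line at 9.00. Slc17a6, Slc18a2, Slc18a3 and Gad2 are above the dashed line in the rosette array and below it elsewhere, while Gatm and Atp1b2 are lowest there.

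The passage comparison asks whether the cells changed with time in culture. Of 55 members, 0 passed at adjusted p under 0.05 in limma (all genes 0%), and 9 had an unadjusted p under 0.05, against 13.9% of all genes. The 9 comprised 7 lower at passage 11 in both cell types (all genes 8.22%) and 2 higher in both (1130 of all 19938 genes), Slc1a2 and Slc6a14. Slc6a14 lay between 6.59 and 7.06 over the arrays, so its values may be background. The 7 were Slc6a15, Slc1a4, Slc7a1, Slc7a3, Slc7a11, Slc7a5 and Slc6a9. The error of this test is the disagreement of OPCs and oligodendrocytes, with 1 residual degree of freedom.

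Slc6a15, a carrier of branched-chain amino acids and proline in neurons, was 9.78 and 8.35 in OPCs at passages 3 and 11, and 10.65 and 8.28 in oligodendrocytes. It was the only member at least 2-fold lower at passage 11 in both cell types (all genes 0.336%), with differences of -1.43 and -2.37 (unadjusted p = 0.00146, adjusted p = 0.357, limma). Both passage 11 arrays lay under 9.00, and the EpiSC and rosette arrays, at 9.83 and 9.63, lay with those of passage 3.

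Slc1a4, the exchanger ASCT1 of serine and other small neutral amino acids, was 11.65 and 10.90 in OPCs and 11.22 and 10.33 in oligodendrocytes (unadjusted p = 0.00172, adjusted p = 0.357, limma). Slc7a3 differed by -1.60 in OPCs and -0.74 in oligodendrocytes, and Slc7a1, another arginine and lysine carrier, by -0.51 and -0.65. Slc7a11, the cystine and glutamate exchanger, differed by -0.51 and -0.50. These 4 genes were listed above because they were lower at passage 11 in both cell types, so their shared direction is no separate result.

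Slc7a5 differed by -0.43 and -0.72 in OPCs and oligodendrocytes, and Slc6a9 by -0.44 and -0.25. Of the amino acid response genes, which ATF4 controls when amino acids are short, Asns differed by -0.51 and -0.37 and Atf4 itself by -0.29 in OPCs and 0.18 in oligodendrocytes. Of the 12, 4 were lower and 4 higher in both cell types. Of all 55 members, 19 were lower at passage 11 in both cell types (34.5%, against 28.5% of all genes) and 26 were higher in both (47.3%, against 40.1%). Of the 24 members never above 9.00, 20 were higher in both and 0 lower, so 20 of the 26 were members whose values may be background. Among the 8058 genes never above 9.00, 57.7% were higher and 10.3% lower in both. The other 31 members held all 19 that were lower and 6 that were higher.

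Other markers also differed by passage. The neuron marker Stmn2 differed by -2.66 in OPCs and -4.44 in oligodendrocytes, and 4 of 11 neuron markers were lower in both. The astrocyte marker Aldh1l1 differed by -2.60 and -1.35, with 4 of 10 lower and 4 higher in both. The log2 summed level of 8 fibroblast and pericyte markers went from 13.32 to 12.59 in OPCs and from 14.18 to 12.79 in oligodendrocytes. Their part in the passage differences was not tested.

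**Figure D5:**
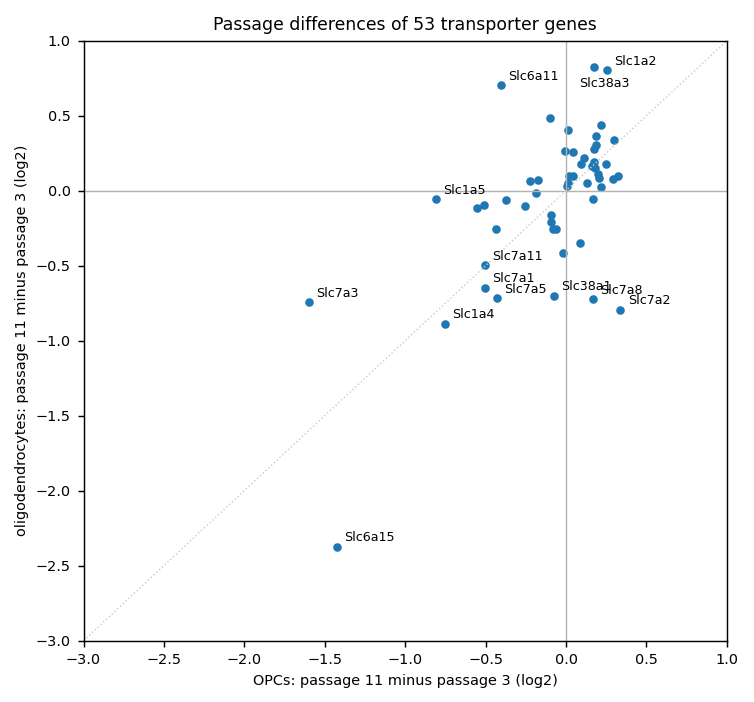
Passage 11 minus passage 3 log2 difference of 53 transporter genes in OPCs (horizontal axis) and oligodendrocytes (vertical axis), 1 array per passage and cell type; the dotted line marks equal differences. Slc6a15, at -1.43 and -2.37, lies farthest to the lower left, and Slc6a11 lies at -0.41 in OPCs and 0.71 in oligodendrocytes.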

How the data were processed

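RNA from 6 cultures was measured on Affymetrix whole-transcript arrays. The deposited values are on the log2 scale; per the submitters' processing notes, the authors used Affymetrix Expression Console and its RMA method. RMA corrects background, equalises the arrays' distributions and summarises probes, so differences of dim genes are compressed. The sources used here do not give the version, the background option or the array's genome build. Of 35556 rows, 21789 had 1 gene symbol, 1621 several and 12146 none. RefSeq held 21698 of the IDs and changed 0 symbols. For 999 genes with several rows, the row with the highest mean was kept, leaving 19938 genes.

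Differences were tested in limma 3.58.1 (R 4.3.3), two-sided, with Benjamini-Hochberg adjustment over all genes. The group comparisons used 6 arrays in 4 groups, with 2 residual and 3.32 prior degrees of freedom. The passage comparison used 4 arrays with cell type as a covariate. The test was checked on simulated data. The number of arrays limits the precision.

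Oligodendrocytes of a passage were made from OPCs of that passage, so passage pairs the arrays; over genes, the passage differences of both cell types correlated with r = 0.50. With passage as a block, OPCs against rosette called 1206 genes in place of 624, and oligodendrocytes against OPCs called 1 member in place of 2.

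Named members were those called, those at least 4-fold apart between rosette and EpiSC arrays, those with a passage difference of 2-fold or more of like sign in both cell types, and 25 measured members fixed by name. Other members were named after their values were seen. The members, lists and named genes were chosen with earlier results of these data known. Alternatives changed the block, the variance prior, the scaling, the filter on dim genes, the row per gene and the arrays used. Promoter windows come from RefSeq, and 16 motifs were searched.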

Additional observations from a re-analysis of the deposited data

Results flagged for a closer look

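Slc6a11 moved in opposite directions with passage in the OPC and oligodendrocyte pairs. From passage 3 to passage 11 its log2 value went from 12.46 to 12.06 in OPCs (-0.41) and from 11.21 to 11.91 in oligodendrocytes (0.71), so these differences lay 1.11 apart. With 1 array per passage and cell type the difference was not tested. Oligodendrocytes lay 1.26 below OPCs at passage 3 and 0.14 below them at passage 11.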

How the results depend on the processing

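No difference of a named member changed sign where it had been called. For OPCs against rosette, the 4 higher members ranged from 1 to 4 and the 2 lower ones from 0 to 8 when 1 array was left out in turn, and the genes called from 156 to 2897. With only the arrays of both groups, 2897 genes and 8 members lower were called, as when 1 oligodendrocyte array was left out, since the spread is then that of the OPC pair alone. The replicate block gave 1206 genes, and quantile normalization again left 1 member lower.

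For oligodendrocytes against OPCs, leaving out 1 array in turn gave 0 to 7 members higher, 0 to 6 lower and 2 to 2919 genes. The 2 higher members became 1 with the replicate block or a trend in the prior, and 0 after quantile normalization again or without dim genes. The 89 genes became 157 with centred arrays, 14 after quantile normalization again and 20 without dim genes. The limma adjusted p of Slc1a1 was 0.0507 with the trend and 0.0529 without dim genes. The cause was not tested. Over all alternatives the limma adjusted p for OPCs against rosette ranged from 6.45e-08 to 0.0258 for Slc6a11, 9.78e-08 to 0.0514 for Slc38a3, 1.78e-06 to 0.0606 for Slc1a1, 3.58e-05 to 0.139 for Slc1a3, 4.94e-05 to 0.148 for Slc6a5 and 7.54e-05 to 0.141 for Slc7a14. For oligodendrocytes against OPCs it ranged from 1.10e-05 to 0.258 for Slc1a1 and from 3.04e-05 to 0.227 for Slc7a14.

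For passage, 0 genes became 1 with the trend and 2 with centred arrays, and 2 members were at least 2-fold lower in OPCs alone. At a 2-fold limit the rosette and EpiSC arrays differed for 3 members upward and 2113 genes. With 1 or 2 arrays a group, small differences cannot be told from none.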
